A study of Mus musculus with 12 samples.

Results

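Transcripts of the protease gene Pappa and of the insulin-like growth factor (IGF) axis were followed in mouse tongue during oral carcinogenesis with and without gallic acid (GA). The members were 10 of the 32498 named genes in the tables, chosen by name. They were Pappa, the ligands Igf1 and Igf2, the receptor Igf1r, and the binding proteins Igfbp2, Igfbp3, Igfbp4, Igfbp5, Igfbp6 and Igfbp7. Bulk RNA-seq was available for 6 vehicle and 6 GA libraries of tongue from C57BL/6 mice, bought at 5 weeks of age and labelled as tumor and tumor-associated material. Every mouse, vehicle mice included, had drunk the carcinogen 4NQO (4-nitroquinoline 1-oxide) at 100 µg/mL for 16 weeks, a chemical model in which lesions arise in the resident epithelium. From week 4, oral GA, a plant polyphenol, was given by gavage (100 mg/kg, 5 times per week) until sacrifice, and the controls received the DMSO, methyl cellulose and Tween-20 vehicle on the same schedule. No group without 4NQO was analysed here, so all values are from carcinogen-exposed tongue. Replicates are numbered in the labels without naming the animals, so p-values measure the spread between these libraries.

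IGF1 and IGF2 bind the receptor tyrosine kinase IGF1R, which signals through IRS proteins, PI3K and AKT and promotes growth and survival of epithelial cells. IGF-binding proteins hold the ligands away from the receptor in tissue fluid. PAPP-A, the product of Pappa, is a secreted zinc metalloprotease that cuts IGFBP4 and IGFBP5 and so releases IGF near the cell surface, and the stanniocalcins STC1 and STC2 inhibit it.

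The coding stretch that defines PAPP-A as a protease and the stretch that most of the binding proteins share are shown because they set the roles by which the genes are ordered. Both were read from GENCODE M21 transcripts and placed on GRCm38. The first encodes the zinc-binding site, and capitals mark the codons of its histidines and its glutamate. In Pappa it lay in exon 4 at chr4:65180920-65180952 on the plus strand, and in the paralog Pappa2 in exon 4 at chr1:158857336-158857368 on the minus strand.
Pappa: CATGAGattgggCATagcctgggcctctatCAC
Pappa2: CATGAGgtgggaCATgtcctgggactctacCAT
These stretches were identical at 25 of 33 bases. The predicted proteins had 1624 residues for Pappa and 1789 for Pappa2.

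The second stretch lies in the amino-terminal, IGF-binding domain of the binding proteins, and capitals mark its 4 cysteine codons. All 5 copies were in exon 1, at chr1:72824778-72824801 (plus) for Igfbp2, chr11:7213566-7213589 (minus) for Igfbp3, chr11:99041650-99041673 (plus) for Igfbp4, chr1:72873966-72873989 (minus) for Igfbp5 and chr5:77407826-77407849 (minus) for Igfbp7.
Igfbp2: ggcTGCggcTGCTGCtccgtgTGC
Igfbp3: ggcTGCggcTGCTGCctgactTGC
Igfbp4: ggcTGCggtTGTTGCgccactTGC
Igfbp5: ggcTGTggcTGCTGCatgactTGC
Igfbp7: gcgTGCgggTGCTGCccggtgTGT
Igfbp3 and Igfbp5 were identical at 22 of 24 bases, and Igfbp4 shared 14 with Igfbp7. The pattern searched was glycine or alanine, cysteine, glycine or alanine, any residue, cysteine, any 2 residues and cysteine, and it was not found in the predicted protein of Igfbp6, which is known to prefer IGF2. Igfbp7, whose copy opens with an alanine codon, encodes a protein that binds IGFs only weakly.

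Recovered library totals were 18040152 to 21770340 reads for the vehicle group and 21237167 to 25192491 for the GA group. All 10 keratinocyte and adhesion markers and all 10 muscle markers of the fixed lists were detected in every library of this tongue tissue. Vehicle libraries 1 to 4 and GA library 1 carried Y-linked reads and the other 7 did not, a split that the labels do not mention. Vehicle libraries 3 and 5 and GA library 2 stood apart by their gland genes, with gland scores (mean log2 level) of 5.30 to 6.15 against -3.07 to -2.50 in the rest. Levels below are FPKM (reads divided by exon length and by library total) scaled between libraries, and a fold change is the difference of log2(scaled FPKM + 0.1), GA less vehicle.

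The axis was dominated by binding protein transcripts. Igfbp2 had the highest median over the 12 libraries, 172 scaled FPKM (range 127 to 270), and Igf2 the lowest, 0.175. Between these stood Igfbp5 (median 91.4), Igfbp3 (71.9), Igfbp7 (69.6), Igfbp4 (34.5), Igfbp6 (14.5), Pappa (5.30), Igf1r (3.06) and Igf1 (1.05). Neighbours in this order were compared within libraries with an exact paired permutation test, adjusted over the 9 pairs. The order came from the medians of the same 12 libraries, so the p-values are not an independent test of it. Igfbp5 and Igfbp3 differed by 0.09 ± 1.19 on the log2 scale (SD, n = 12, exact adjusted p = 0.847), and Igfbp3 and Igfbp7 by 0.08 ± 0.87 (exact adjusted p = 0.847), so these 3 could not be ordered. The other 7 steps passed the test, with exact adjusted p-values from 0.000879 to 0.0477. The weakest was that from Igfbp6 to Pappa, which at 0.95 ± 1.38 was smaller than its SD and was seen in 9 of 12 libraries. FPKM divides by all annotated exon bases of a gene, so unused exons lower the level of long genes such as Igf1r (16791 exon bases).

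**Figure D1:**
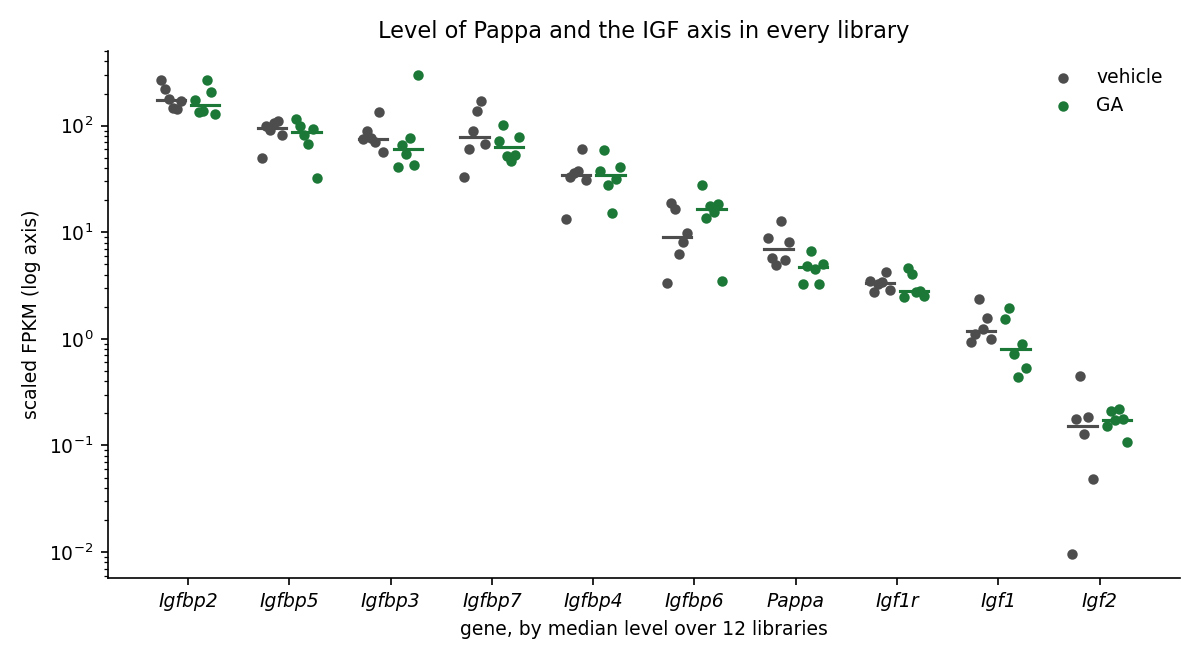
Scaled FPKM on a log axis for the 10 genes in 6 vehicle (grey) and 6 GA (green) libraries, 1 point per library, with a bar at each group median. Binding proteins fill the upper range and the ligands the lower, the groups overlap for every gene, and Igfbp3 has 1 GA library at 300.4.

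Pappa, the protease (chr4:65124174-65357509 of GRCm38, plus strand, 22 exon blocks), was the member with the smallest p-value, and it was lower with GA. Its level in vehicle libraries 1 to 6 was 8.82, 5.74, 4.88, 12.7, 5.51 and 8.17 scaled FPKM, and in GA libraries 1 to 6 it was 3.28, 4.82, 6.73, 4.52, 3.30 and 5.09. All 6 GA libraries were below the vehicle median of 6.96, and 4 were below the lowest vehicle library, but the groups overlapped, because GA library 3 exceeded 3 of the vehicle libraries. The vehicle mean was 7.65 ± 2.95 and the GA mean 4.62 ± 1.29 (SD, n = 6 per group). Vehicle libraries held 1053 to 3279 Pappa reads and GA libraries 751 to 1819, so counting error is small beside the spread.

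In log2 terms Pappa differed by -0.68 (standard error 0.24, 95% interval -1.21 to -0.15). The adjusted p in limma was 0.999, so it did not pass the study's limits (adjusted p below 0.1, log2 fold change of 0.58 or more in either direction). Unadjusted, limma gave p = 0.0164 and the exact permutation test, two-sided over the 924 ways to assign 6 of 12 libraries, gave p = 0.0325. By limma p it ranked 94 among the 16852 genes tested. The study itself reports Pappa as significantly downregulated in GA-treated tongue, with edgeR on read counts, whereas limma was run here on FPKM. The p-value of Pappa is therefore not independent evidence of a difference.

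The difference of Pappa kept its direction in all 27 alternative fits, between -0.93 and -0.48. The exact p depended on single libraries. It was 0.0606 without vehicle library 1 or 6, 0.0649 without vehicle library 4 or GA library 1 or 5, and 0.0519 without GA library 4, and between 0.0152 and 0.0455 without each of the other 6. Without vehicle library 4, the highest, the log2 difference was -0.52, under the 0.58 limit. With a planned term for the presence of Y-linked reads, over all 12 libraries, it was -0.73 (limma unadjusted p = 0.0297). In the 2 vehicle and 5 GA libraries that lacked Y-linked reads it was -0.48 (exact permutation p = 0.238), and in the 4 vehicle libraries and 1 GA library that had them -1.17 (exact permutation p = 0.400), where the smallest possible p is 0.2.

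**Figure D2:**
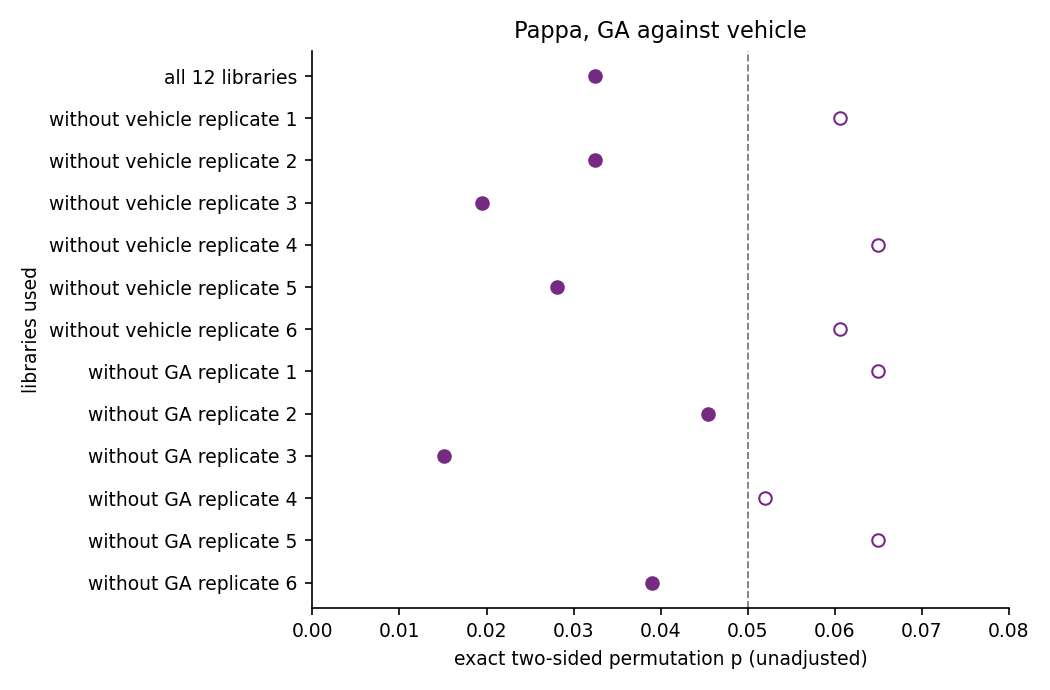
Exact two-sided permutation p of Pappa (unadjusted, x axis) with all 12 libraries and with each library left out in turn (y axis), filled below 0.05 (dashed line) and open above it. All 12 libraries gave 0.0325, and 6 of the 12 omissions moved p above 0.05.

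Pappa varied with some markers of tissue make-up across the libraries, but no such relation had an adjusted permutation p below 0.05. All 10 epithelial markers were lower with GA, with a summed level of 17560 to 32701 scaled FPKM against 20882 to 49002 in the vehicle group (exact permutation p of the score 0.190), and 5 of 6 Schwann cell markers, those of the glia of peripheral nerves, were higher (exact permutation p = 0.323). Across the 12 libraries Pappa followed the epithelial score with r = 0.64 and rho = 0.71 (permutation p = 0.0250 and 0.0131, adjusted over 80 relations 0.0852 and 0.0775), and r was 0.77 without the 2 libraries farthest from the median score. It ran against the Schwann score with r = -0.68 and rho = -0.69 (permutation p = 0.0151 and 0.0149, adjusted 0.0672 and 0.0792), and r was -0.81 without the 2 farthest. With the epithelial score as a term, the log2 difference of Pappa was -0.48 (limma unadjusted p = 0.0662), and with the Schwann score -0.50 (unadjusted p = 0.0323), both under the 0.58 limit. Both terms were chosen after seeing the data. With the planned terms it stayed past the limit, at -0.65 for muscle, -0.75 for fibroblast and -0.64 for neutrophil markers (limma unadjusted p = 0.0134, 0.00898 and 0.0363). In bulk tissue, fewer cells of a type and less RNA per cell cannot be told apart.

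Of the 10 members, 0 were called, against 0% of the 16852 genes tested. At an unadjusted limma p below 0.05, 1 member (Pappa) remained, against 2.18% of all genes, and with the fold limit added it was again 1 member against 1.1%. By the exact permutation test at p below 0.05 it was 1 member against 2.4%. With GA, 7 members were lower and 3 higher, where 52.4% of all genes were lower. The median log2 fold change was -0.14 over the members and -0.01 over all genes.

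**Figure D3:**
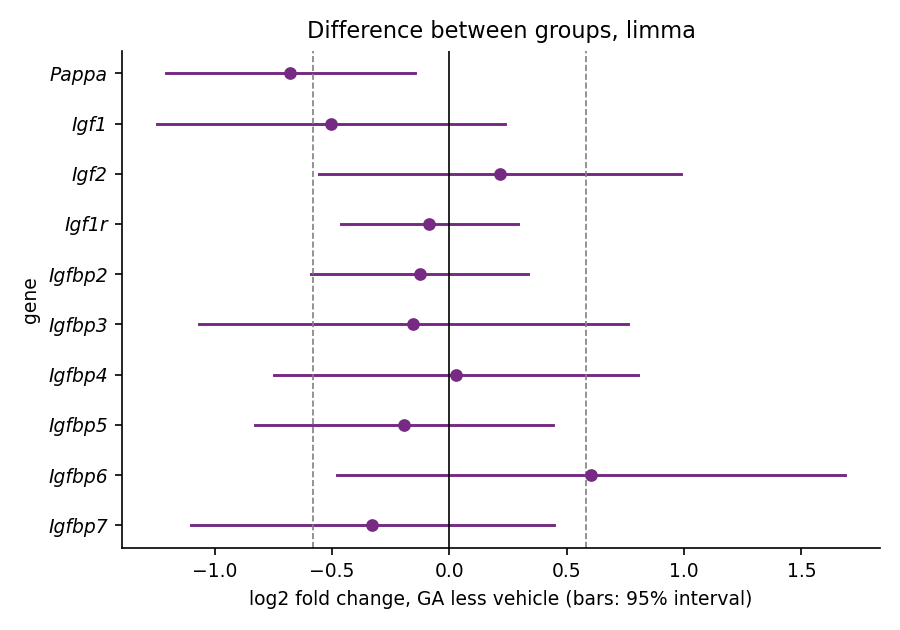
Log2 fold change of each member, GA less vehicle (x axis), from limma on 6 and 6 libraries, with bars for the 95% interval and dashed lines at the 0.58 limit in both directions. Only the interval of Pappa leaves out 0, at -1.21 to -0.15, before any adjustment for the number of genes.

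Among the ligands, Igf1 (chr10:87858265-87937042, plus strand), the main growth hormone-dependent ligand after birth, was at low levels in both groups. It spanned 0.943 to 2.37 scaled FPKM with vehicle (median 1.18) and 0.442 to 1.97 with GA (median 0.804). In the GA group 4 libraries were below every vehicle library while the other 2 were among the 4 highest of all 12, so the groups overlapped and the GA values were split. The log2 fold change was -0.50 (standard error 0.34, 95% interval -1.25 to 0.24), with an adjusted p of 0.999 in limma and an exact permutation p of 0.190. The 2 high GA libraries, 1 and 2, were also the highest of the GA group for fibroblast, macrophage, muscle and neutrophil markers. With planned terms the difference of Igf1 was -0.28 for the fibroblast score (limma unadjusted p = 0.243) and -0.31 for the neutrophil score. For the muscle score it was -0.56 (limma unadjusted p = 0.0287), and for Y-linked reads -0.31. With the epithelial and Schwann scores, chosen after seeing the data, it was -0.87 and -0.66 (limma unadjusted p = 0.0101 and 0.0761). Without GA library 4 it was -0.33, and without GA library 2 it was -0.72 (limma unadjusted p = 0.0412), whereas in the libraries with Y-linked reads it was 0.19.

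Igf2 (chr7:142650766-142666816, minus strand), the growth factor of fetal life, was close to the detection limit. Reads numbered 1 to 50 in a vehicle library and 16 to 29 in a GA library, which gave 0.00961 to 0.447 scaled FPKM with vehicle and 0.107 to 0.218 with GA. The vehicle libraries spread on both sides of the GA libraries, with 1 above and 2 below all of them. The log2 fold change was 0.21 (95% interval -0.56 to 0.99, adjusted p of 0.999 in limma, exact permutation p = 0.556). Its level is uncertain for another reason, since 62.8% of its exon bases are shared with Gm49394 on the same strand, where reads may go uncounted.

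Igf1r, the receptor (chr7:67952827-68233668, plus strand), had the narrowest range of the members, 1.85-fold from its lowest to its highest library. It lay between 2.78 and 4.25 scaled FPKM with vehicle (median 3.33) and between 2.49 and 4.61 with GA (median 2.78). The GA libraries held both the 3 lowest and the highest value. The log2 fold change was -0.08 (standard error 0.17, 95% interval -0.46 to 0.29, exact permutation p = 0.630), an interval that stays within the 0.58 limit.

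Of the PAPP-A substrates Igfbp4 (chr11:99041244-99054392, plus strand) and Igfbp5 (chr1:72857932-72874884, minus strand), neither passed a test. Igfbp4 spanned 13.2 to 60.0 scaled FPKM with vehicle (median 34.5) and 15.2 to 59.7 with GA (median 34.6), so the ranges nearly coincided. Its log2 fold change was 0.03 (standard error 0.36, 95% interval -0.75 to 0.80, exact permutation p = 0.931), and its sign turned in 9 of 29 alternatives. Igfbp5 spanned 49.2 to 111 with vehicle (median 94.95) and 32.5 to 116 with GA (median 86.9), with the GA group holding both extremes. Its log2 fold change was -0.19 (standard error 0.29, 95% interval -0.83 to 0.44, exact permutation p = 0.578), and over omissions of single libraries it ran from -0.36 without vehicle library 1 to 0.070 without GA library 6. With planned terms it was -0.017 for the fibroblast score (limma unadjusted p = 0.939) and -0.022 for the neutrophil score. For the muscle score it was -0.23, and for Y-linked reads -0.11. With the epithelial and Schwann scores, chosen after seeing the data, it was -0.56 and -0.43 (limma unadjusted p = 0.0163 and 0.0860).

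The ratio of Pappa to Igfbp4, protease over substrate, was formed in each library from the scaled FPKM with 0.1 added to both. It was 0.0935 to 0.670 with vehicle (median 0.221) and 0.0824 to 0.301 with GA (median 0.117). Vehicle library 1 had the highest ratio, with the lowest Igfbp4 level of all. The groups overlapped over most of their range, and the mean log2 ratio was -2.14 ± 1.01 in the vehicle group against -2.84 ± 0.78 in the GA group (SD, n = 6 per group). That difference of -0.71 did not exceed the spread (exact permutation p = 0.206), and without vehicle library 1 it was -0.39.

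Igfbp3 (chr11:7206086-7213923, minus strand), the main carrier of IGFs in serum, was dominated by a single library. The vehicle libraries lay between 56.9 and 135 scaled FPKM, and GA libraries 1 to 5 between 40.5 and 76.1. GA library 6 was at 300.4, from 24521 reads, while no other library had more than 9231. The log2 fold change was -0.15 (standard error 0.42, 95% interval -1.07 to 0.76, exact permutation p = 0.777) with that library and -0.55 (limma unadjusted p = 0.0332) without it. GA library 6 also had the highest epithelial score of the 12 libraries (9.95) and the lowest Igfbp2 and Igfbp5 levels.

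Igfbp2 (chr1:72824503-72852474, plus strand) was the most abundant binding protein transcript in 10 of 12 libraries. It lay between 144 and 265 scaled FPKM with vehicle (median 175) and between 127 and 270 with GA (median 155). The GA group held the highest and the 3 lowest values, and the log2 fold change was -0.13 (standard error 0.21, 95% interval -0.59 to 0.34, exact permutation p = 0.582). Within the summed binding proteins Igfbp2 made up 22.9 to 60.6% with vehicle and 21.9 to 55.1% with GA.

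Igfbp6 (chr15:102144362-102149511, plus strand) had the largest positive difference of the members, with a wide interval. It spanned 3.36 to 18.7 scaled FPKM with vehicle (median 8.98) and 3.46 to 27.8 with GA (median 16.5). In the GA group 5 of 6 libraries were above the vehicle median, but GA library 6 was nearly as low as the lowest vehicle library. The log2 fold change was 0.60 (standard error 0.50, 95% interval -0.48 to 1.69), with an adjusted p of 0.999 in limma and an exact permutation p of 0.314. Without GA library 6 it was 1.01 (limma unadjusted p = 0.0257) and without vehicle library 1 it was 0.33 (limma unadjusted p = 0.505). It was 0.40 without GA library 1. With planned terms it was 0.53 for muscle, 0.77 for fibroblast and 0.56 for neutrophil markers, and 0.84 for Y-linked reads. Each of these had a limma unadjusted p of 0.145 or more. With the Schwann and epithelial scores, chosen as terms after seeing the data, it was 0.06 and -0.09.

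Igfbp7 (chr5:77349240-77408041, minus strand), which encodes a vessel-associated matrix protein, spanned 32.8 to 171 scaled FPKM with vehicle (median 78.3) and 46.2 to 101 with GA (median 63.0). The vehicle libraries were the more variable, with 2 above and 1 below all GA libraries. The log2 fold change was -0.33 (standard error 0.36, 95% interval -1.10 to 0.44, exact permutation p = 0.418). It was -0.59 without vehicle library 1 (limma unadjusted p = 0.0692), -0.18 without vehicle library 4 and -0.11 without vehicle library 5. As planned terms, the fibroblast score gave -0.099 and the neutrophil score 0.11, while muscle gave -0.36 and Y-linked reads -0.47. The epithelial and Schwann scores, chosen after seeing the data, gave -0.40 and -0.38. Of its exon bases, 7.03% are shared with Polr2b on the other strand.

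The 6 binding proteins summed to 418 to 629 scaled FPKM with vehicle (median 495) and 369 to 582 with GA (median 470). Libraries low in Igfbp2 tended to be high in Igfbp4 and Igfbp7. The log2 difference of the sum was -0.08 (exact permutation p = 0.504). Igfbp2 and Igfbp4 had a Pearson r of -0.81 over the 12 libraries, while Igfbp4 and Igfbp7 had an r of 0.85, and of 0.92 within each group. These correlations are descriptions over libraries that share the tissue make-up given above.

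**Figure D4:**
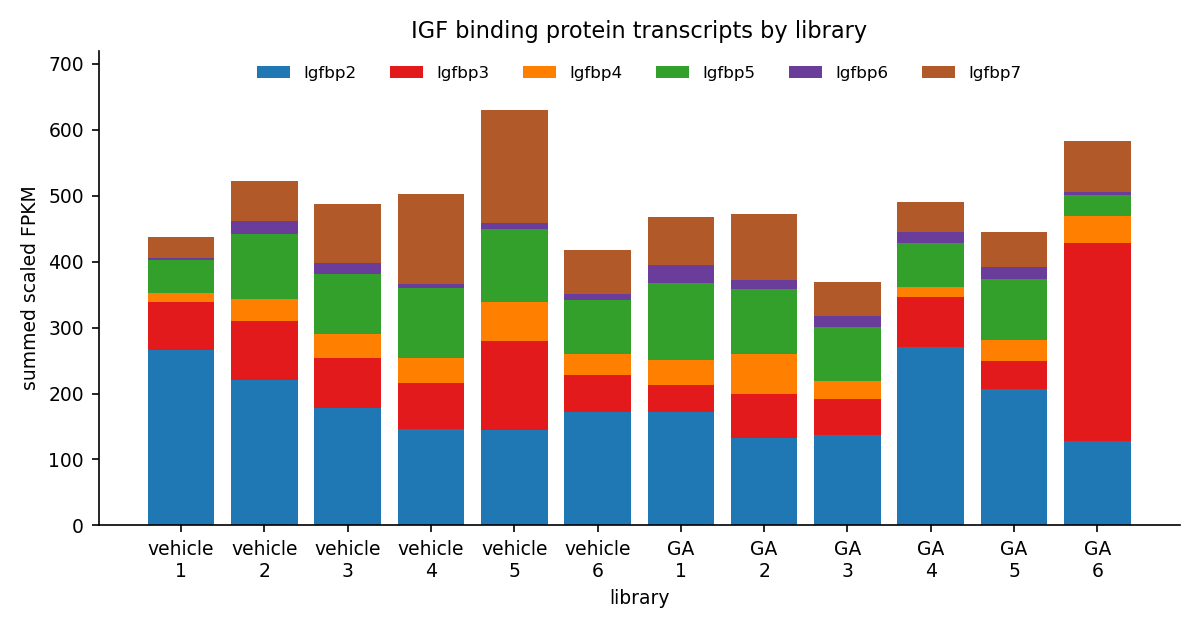
Scaled FPKM of the 6 IGF binding proteins, stacked from 0 for each library (x axis), vehicle libraries first. The stacks end between 369 and 629, Igfbp2 is the largest layer in 10 of 12 libraries, Igfbp7 in vehicle library 5 and Igfbp3 in GA library 6.

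Several members followed marker scores of cell types, some of them more than 1 score. Each of the 10 members was set against 8 marker scores over the 12 libraries, 80 relations in all, with 100000 permutations each. Pearson r and Spearman rho both had an adjusted p below 0.05 for 6 of them, and Pearson r, passing or not by rho, for 13. Igfbp6 followed the Schwann score most closely, with r = 0.95 and rho = 0.96 (adjusted permutation p = 0.0008 for both), r = 0.92 without the 2 farthest libraries, 1.00 within vehicle and 0.94 within GA. It also ran against the epithelial score, with r = -0.90 and rho = -0.81 (adjusted permutation p = 0.00213 and 0.0308), and r was -0.81 without the 2 farthest. With the endothelium score Igfbp6 had r = 0.74 and rho = 0.72 (adjusted permutation p = 0.0256 and 0.0739), and r was 0.81 within vehicle and 0.91 within GA.

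Igfbp7 followed the neutrophil score with r = 0.89 and rho = 0.87 (adjusted permutation p = 0.002 and 0.0134), and r was 0.71 without the 2 farthest libraries, 0.90 within vehicle and 0.82 within GA. With the fibroblast score Igfbp7 had r = 0.80 and rho = 0.73 (adjusted permutation p = 0.0225 and 0.0628), and r was 0.91 within vehicle and 0.62 within GA. Igf1 followed the fibroblast score with r = 0.81 and rho = 0.85 (adjusted permutation p = 0.0225 and 0.0134, r = 0.84 without the 2 farthest) and the macrophage score with r = 0.81 and rho = 0.81 (adjusted permutation p = 0.0225 and 0.0308, r = 0.78 without the 2 farthest). Within the GA group these were r = 0.97 and 0.96, and within vehicle 0.64 and 0.69. With the muscle score Igf1 had r = 0.71 and rho = 0.73 (adjusted permutation p = 0.0502 and 0.0628), and r was 0.81 within vehicle and 0.92 within GA. Igfbp5 followed the fibroblast score with r = 0.75 and rho = 0.92 (adjusted permutation p = 0.0301 and 0.0028, r = 0.79 without the 2 farthest, 0.76 within each group). Relations with the gland score are not given, since the libraries form 2 separate clusters on it. Neither the neutrophil score, with all 9 tested markers lower with GA, nor any other score passed the test between the groups (lowest exact permutation p = 0.190).

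**Figure D5:**
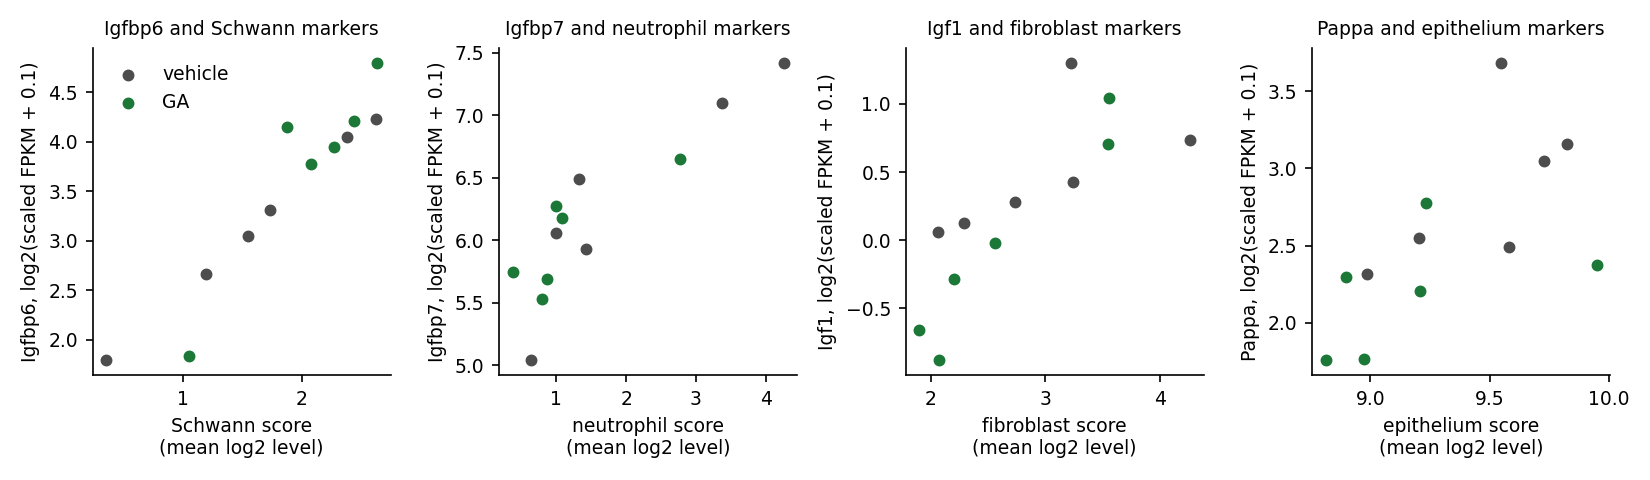
Log2(scaled FPKM + 0.1) of Igfbp6, Igfbp7, Igf1 and Pappa (y axes) against the Schwann, neutrophil, fibroblast and epithelium scores (x axes, mean log2 level of the markers), 1 point per library, vehicle in grey and GA in green. Points climb in all 4 panels, most tightly for Igfbp6 (r = 0.95) and least for Pappa (r = 0.64).

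The wider pathway was read from 40 further genes in 5 lists, of which 33 passed the filter on low values. By limma 0 were called, and 2 of the 33 had an unadjusted p below 0.05 (2.18% of all genes did), both in the growth hormone input list. With GA 21 were lower and 12 higher, where 52.4% of all genes were lower, and their median log2 fold change was -0.06. Jak2, the kinase of the growth hormone receptor, was 10.2 to 15.7 scaled FPKM with vehicle (median 13.1) and 8.84 to 11.6 with GA (median 10.2). Its log2 fold change was -0.37 (standard error 0.12, limma unadjusted p = 0.00954, exact permutation p = 0.0152). The study reports Jak2 as downregulated from these libraries too. Stat5a, a transcription factor activated by JAK2, was 1.90 to 2.22 with vehicle (median 2.13) and 1.62 to 1.96 with GA (median 1.77). Its log2 fold change was -0.23 (standard error 0.10, limma unadjusted p = 0.0447, exact permutation p = 0.00649). The smallest adjusted p of any gene in limma was 0.999. The ranges of Jak2 and Stat5a overlapped between the groups and both changes were under the 0.58 limit. Ghr, the receptor itself, had a log2 fold change of 0.17 and the feedback inhibitor Socs2 one of -0.10. By sign, 6 of the 7 genes of this list were lower, beside 52.4% of all genes, but Stat5b and Cish were both at -0.01.

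In the list of the PAPP-A system and other proteases of binding proteins, 6 of 7 genes were tested, and 4 were lower and 2 higher with GA. The PAPP-A inhibitors Stc1 and Stc2 spanned 0.210 to 3.03 and 0.0744 to 3.31 scaled FPKM with vehicle, and 0.440 to 1.78 and 0.257 to 1.14 with GA. Their log2 fold changes, -0.50 (standard error 0.53) and -0.37 (standard error 0.58), were smaller than their errors. Pappa2, which cuts IGFBP5, stayed at or under 0.375 in every library, and Prg2, which encodes an inhibitory partner of PAPP-A, was above 0 in only 3 libraries. The secreted protease gene Htra1 was the most abundant of the list (8.32 to 27.5 with vehicle, 9.78 to 39.2 with GA, log2 fold change 0.01).

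Among other receptors and carriers, 3 of 7 genes were tested. Igf2r, the scavenging receptor of IGF2, lay between 9.10 and 14.3 scaled FPKM with vehicle and 9.80 and 12.5 with GA (log2 fold change -0.10), and Insr, the insulin receptor, between 2.89 and 5.27 and between 3.70 and 4.92 (0.08). Igfals, the partner of IGFBP3 in serum, had a log2 fold change of -0.36 (exact permutation p = 0.113). Igfbp1 had reads in 1 of 12 libraries. In the receptor signalling list 7 of 15 genes were higher and 8 lower, with a median of -0.0017. The largest differences there were those of Grb14, an adaptor that inhibits the receptor (0.62, standard error 0.55), and Irs1, the docking protein (0.45, standard error 0.36). Of the list on the Igf2 locus and its mRNA-binding proteins, 2 of 4 genes were tested, H19 (0.08) and Igf2bp2 (-0.11).

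The genes whose pattern over the 12 libraries was most like that of Pappa, by Spearman rho over 12161 genes averaging 1 scaled FPKM or more, were Xpr1 (0.94), Bmp2k (0.92), Pef1 (0.91), Fam110c (0.90) and Fmnl2 (0.89). For Igf1 they were Pik3r1 (0.98), Lrrc25 (0.94), Fcer1g (0.93), Myh1 (0.92) and Sh3bgrl (0.92). Of the second group, Fcer1g encodes an Fc receptor subunit of myeloid cells and Myh1 a myosin of fast skeletal muscle. These are the closest of many genes compared and carry no test.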

How the data were processed

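Bulk RNA-seq libraries from 4NQO-exposed tongue (6 vehicle, 6 GA) were made with a SMARTER mRNA-Seq kit. Per the study's methods, reads were aligned to mm10 with HISAT2, and uniquely mapped reads were counted per gene with featureCounts. The deposited values are FPKM, which the authors derived from counts that were not analysed here. The strand setting is not given in the sources used here. Rows without a gene name (41.4% of 55463, holding 16.2% to 25.5% of the FPKM sum) were left out. Read numbers were recovered from low FPKM values with GENCODE M21 exon lengths, and 97.8% to 98.3% of values worth few reads came out whole within 0.02 reads.

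Libraries were scaled by trimmed means of their log ratios (factors 0.896 to 1.07). Genes averaging 0.1 FPKM or more were tested with limma 3.58.1 in R 4.3.3 on log2(FPKM + 0.1), which understates changes of low genes. This replaces the study's count test, since the deposited values are not counts, and limma-voom on the recovered reads was run as an alternative. The call required a p below 0.1 after Benjamini-Hochberg adjustment and a log2 fold change of 0.58 or more in either direction. Single values were compared with exact permutation tests, two-sided, in scipy, and the fits were tested on simulated data. The members, pathway lists and marker lists were chosen with earlier results of these data known. Named genes are the members, the counted pathway genes and the 5 genes most like Pappa and Igf1. Alternatives covered the pseudocount, filter, scaling, terms for sex and tissue make-up, a replicate block, recovered reads and omission of single libraries. The epithelium and Schwann terms and the split by Y-linked reads were chosen after seeing the data.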

Additional observations from a re-analysis of the deposited data

Results flagged for a closer look

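Within-group gaps were examined for the 10 members, the Pappa to Igfbp4 ratio and the summed binding proteins in both groups, 24 sets of 6 values. Igfbp3 in GA library 6 was set apart, at 300.4 scaled FPKM against 76.1 in the next GA library, a gap of 0.863 of the group's whole range and past Dixon's 95% limit for 6 values. About 1 in 20 such sets is flagged by chance. Whether this library differs by its tissue or its handling was not tested.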

How the results depend on the processing

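In every fit 0 members were called, and 0 genes, except 1 gene, not a member, without vehicle replicate 4 (leave-one-out range 0 to 1). At an unadjusted p below 0.05 with the fold limit there were 186 genes and 1 member. Across alternatives that count ran from 36 genes with a pseudocount of 1 to 400 without GA replicate 6. The exact p of Pappa ranged from 0.0152 to 0.0649 over omissions of single libraries, and was 0.238 in libraries without and 0.400 in libraries with Y-linked reads. Its log2 difference was negative in 29 of 29 alternatives. The ratio of Pappa to Igfbp4 (-0.96 to -0.39 over omissions) and the summed binding proteins (-0.15 to -0.02) stayed negative, with exact permutation p-values above 0.05.

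Other members, all far from a call, changed sign in places. Igfbp4 was -0.12 with the sex term, -0.015 with muscle, -0.089 with epithelium, -0.073 with Schwann, -0.44 without Y-linked reads, and -0.23 to 0.25 over omissions. Igfbp3 was 0.27 with epithelium, 0.059 with Schwann, 0.042 without the 3 gland-rich libraries, and -0.55 to 0.014 over omissions. Igf2 was -0.12 with epithelium, -0.030 with Schwann, and -0.0029 to 0.46 over omissions. Igfbp5 was 0.49 with Y-linked reads and -0.36 to 0.070 over omissions. Igfbp7 was 0.11 with the neutrophil term and 0.042 with Y-linked reads, Igf1r was 0.045 with the neutrophil term, Igf1 was 0.19 with Y-linked reads, Igfbp2 was 0.085 without them, and Igfbp6 was -0.088 with epithelium. The causes were not tested.

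Same-numbered libraries did not deviate together (r from -0.50 to 0.12). The labels do not say whether the numbers pair samples, and a lack of shared deviation cannot exclude it. With the replicate number as a block, 0 genes and 0 members were called, and Pappa stayed at -0.68 (limma unadjusted p = 0.0323). Depth limits Igf2 most, with 1 to 50 reads per library.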
